A study of Homo sapiens with 10 samples.

Results

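NPTX1, BTBD17, PKDCC, LGALS3BP and TEK are 5 genes with low transcript levels after knockdown of SMARCA4 in human embryonic stem cells, 5 of the 13808 genes in the table. NPTX1, BTBD17, PKDCC and LGALS3BP kept from 2.07% to 4.79% of their control level, while TEK kept 16.8%. They were picked by name because earlier results on these libraries had placed them at the extreme. NPTX1, BTBD17 and PKDCC were the 3 largest drops in shSMARCA4 among the 371 rows called lower than the control. LGALS3BP and TEK had the smallest F-test p-values, after SMARCA4 itself, when the 4 knockdowns were compared. Their low values in shSMARCA4 are therefore given as a description, and the tests concern the knockdowns of MAFK, E2F6 and KDM1A. That F-test also held the MAFK, E2F6 and KDM1A libraries, so for LGALS3BP and TEK the values in those knockdowns are a description too.

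The libraries came from H1, a widely used human embryonic stem cell line labelled as wild type, grown in mTeSR1 on Matrigel. Short hairpin RNAs (shRNAs) were delivered by packaged virus and the cells were then selected with puromycin, in all 5 groups. The groups are shSMARCA4, shMAFK, shE2F6, shKDM1A and the control shLUC, which targets luciferase, a gene that human cells lack. Each group had 2 libraries, described as biological duplicates, which makes 10. The labels give no number of hairpins per target, so an effect of 1 hairpin sequence cannot be told apart from the loss of its target. Values are normalized tag counts, whole numbers that the authors had normalized in a way not given here. In these values 80.3% of ranks hold the same value in every library, and the median was 594 in shLUC replicate 1. A value therefore gives the rank of a gene in its library more than a number of molecules.

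SMARCA4 is a motor subunit of the BAF chromatin remodelling complexes, which spend ATP to move or evict nucleosomes and so keep enhancers and promoters accessible. The 5 genes encode proteins of the secretory pathway or the cell surface, and none is a general marker of pluripotency. NPTX1 is a secreted neuronal pentraxin that gathers glutamate receptors of the AMPA type at synapses. LGALS3BP is a secreted glycoprotein that binds galectins, and BTBD17 is its relative: RefSeq lists LGALS3BPL as another name of BTBD17, and BTBD17B as another name of LGALS3BP. PKDCC is a tyrosine kinase that acts in the secretory pathway and outside the cell, and TEK (also TIE2) is the receptor for angiopoietins, known from endothelial and blood stem cells.

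Of the 5 members, 3 lie on the long arm of chromosome 17, all on the minus strand (GENCODE release 29, GRCh38). BTBD17 (ENSG00000204347) spans 74356416 to 74361946, LGALS3BP (ENSG00000108679) spans 78971238 to 78980109, and NPTX1 (ENSG00000171246) spans 80467148 to 80477843. PKDCC (ENSG00000162878) lies on chromosome 2 from 42048020 to 42058528 on the plus strand, and TEK (ENSG00000120156) on chromosome 9 from 27109141 to 27230175 on the plus strand. All 5 are protein-coding. The annotation places no other gene over NPTX1, BTBD17, PKDCC or LGALS3BP, while TEK holds 2 pseudogenes on its own strand that are not rows of the table.

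Promoter windows of 300 bases, 250 before the start and 50 after it, were taken from the RefSeq table on build GRCh38.p14 for the 2 of the 5 members that were matched, LGALS3BP and TEK; NPTX1, BTBD17 and PKDCC were not matched. These 2 windows are shown because only they were matched. Both genes were low in shSMARCA4, and in shE2F6 TEK was above the control and LGALS3BP below it. A link between these values and the promoter letters was not tested. The LGALS3BP window is chr17:78979874-78980173, minus strand, and the TEK window is chr9:27108975-27109274, plus strand. Each is printed 5′ to 3′ along its gene. Capitals mark matches to the short form of the MAF recognition element (TGCTGA, or TCAGCA on the other strand) and to the E2F core (GCGGGAA, or TTCCCGC).
LGALS3BP: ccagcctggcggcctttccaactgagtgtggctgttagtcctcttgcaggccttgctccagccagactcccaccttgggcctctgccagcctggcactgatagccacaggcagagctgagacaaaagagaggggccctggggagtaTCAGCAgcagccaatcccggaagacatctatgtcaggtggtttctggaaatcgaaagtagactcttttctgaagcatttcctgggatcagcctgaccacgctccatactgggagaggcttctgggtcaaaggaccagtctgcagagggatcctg
TEK: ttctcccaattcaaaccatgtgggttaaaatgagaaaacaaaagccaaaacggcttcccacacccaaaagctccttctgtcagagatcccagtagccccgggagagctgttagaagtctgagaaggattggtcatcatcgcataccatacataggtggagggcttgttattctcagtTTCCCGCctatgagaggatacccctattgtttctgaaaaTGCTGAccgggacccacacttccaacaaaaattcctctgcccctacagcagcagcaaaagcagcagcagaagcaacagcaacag
Positions count from the start used for the RefSeq window, which lies inside the GENCODE span given above for each gene. The TEK window held 1 E2F core, 73 to 67 bases before that start, and 1 short MAF element, 34 to 29 bases before it. The LGALS3BP window held 1 short MAF element, 104 to 99 bases before its RefSeq start, and no E2F core. By the GENCODE spans, all of these matches lie within the genes. Of 27305 promoters, 1 for each gene, 6.56% held the E2F core and 17.4% the short MAF element. Among the 10488 promoters of genes in the table these shares were 10.4% and 12.5%. Neither window matched the AP-1 core TGANTCA, which can overlap the short MAF element and occurs in 7.76% of all promoters and 4.34% of those of table genes, or the TATA box TATAAA (12% and 5.46%). Each window was poor in CpG dinucleotides, with 4 in LGALS3BP and 5 in TEK, against a median of 26 over the promoters of table genes. Of these promoters, 4.34% had fewer CpG than that of LGALS3BP, and 5.68% fewer than that of TEK. A match to such letters is a description of the sequence and not a measured binding site.

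The hairpin targets were checked first. SMARCA4 had 1100 and 985 in the shSMARCA4 libraries and from 7576 to 9296 in the other 8. KDM1A had 3290 and 1879 in shKDM1A against at least 5421 elsewhere, and E2F6 had 336 and 304 in shE2F6 against at least 450 elsewhere. MAFK had 82 and 216 in shMAFK, and 212 and 288 in shLUC, so the shMAFK pair overlapped the control. The replicate SD over all rows was 0.53 on the log2 scale in shKDM1A and from 0.264 to 0.335 in the other groups. All 14 pluripotency markers looked for were in the table, and 0 of them were called in any knockdown. Their summed values were 168542 and 191631 in the shSMARCA4 libraries, both below the 197681 and 207124 of shLUC. They ran from 205982 to 223992 in shMAFK, from 188764 to 204353 in shE2F6 and from 203156 to 292142 in shKDM1A, where 1 POU5F1 value of 148866 set the top. In shSMARCA4, SOX2 had 4426 and 4748 against 6408 and 6928 (limma adjusted p 0.0552). LIN28A had 30774 in both shSMARCA4 libraries and 41812 in both control libraries (limma adjusted p 0.0773). Equal values such as these reflect equal ranks under the normalization and not a small spread. PODXL, PRDM14, SALL4, TDGF1 and USP44 were also below the control in both shSMARCA4 libraries. NANOG went the other way, with 4613 and 3699 against 2512 and 2639 (limma adjusted p 0.284). The remaining markers overlapped the control. The part of these differences in the member values was not tested.

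In the shSMARCA4 libraries the members sat near the bottom of the table. NPTX1 had 17 and 27 normalized tag counts there, against 1076 and 1048 in shLUC, and LGALS3BP had 38 and 66 against 1071 and 1098. BTBD17 had 10 in both libraries, against 312 and 233, and PKDCC had 42 and 22, against 543 and 978. TEK had 60 and 54, against 366 and 313. The shSMARCA4 mean was 2.07% of the control mean for NPTX1, 3.67% for BTBD17, 4.21% for PKDCC, 4.79% for LGALS3BP and 16.8% for TEK, so TEK kept more of its transcript than the other 4. In the first shSMARCA4 library, 0.358% of all rows were lower than NPTX1, where 68.3% were lower in the first control library. In bulk RNA, fewer cells that express a gene and less RNA per cell cannot be told apart.

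**Figure D1:**
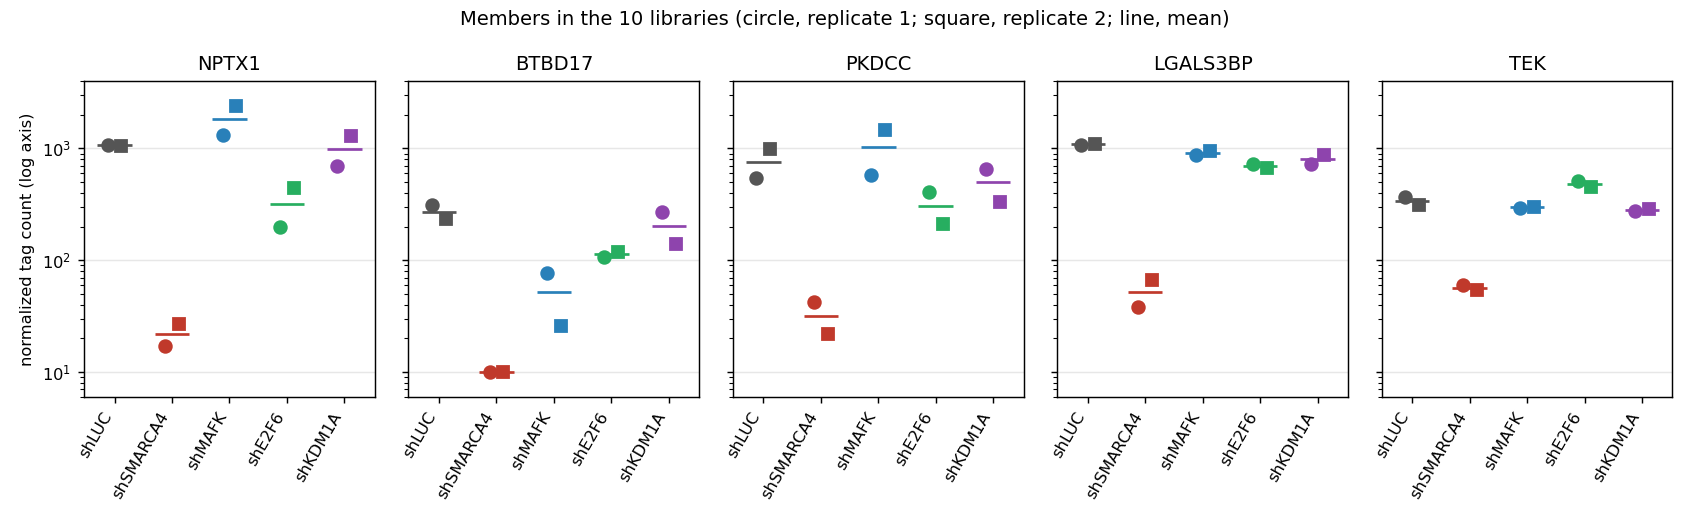
Normalized tag count (log axis) of the 5 members in the 10 libraries, by group on the x axis; circles are replicate 1, squares replicate 2 and lines the mean of the 2. The shSMARCA4 libraries are the lowest of every panel, BTBD17 is next lowest in shMAFK (77 and 26), and NPTX1 is high in shMAFK (1318 and 2374) and low in shE2F6 (198 and 438).

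The log2 changes in shSMARCA4, on the scale log2(value + 1), were -5.57 for NPTX1, -4.62 for BTBD17, -4.54 for PKDCC, -4.41 for LGALS3BP and -2.55 for TEK. By this measure TEK ranked 37 among the 371 rows called lower, a share of 2.51% of all 14785 rows. The choice of the members used this contrast, so nothing is read from their count in it. LGALS3BP was the next drop after PKDCC, and the first row beyond the members was ARHGAP23, with 59 and 110 in shSMARCA4, 1242 and 1631 in shLUC and a log2 change of -4.13.

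Outside shSMARCA4 the members differed in how much they varied. The other 8 libraries spanned a range of 12-fold for NPTX1 (198 to 2374), 12-fold for BTBD17 (26 to 312) and 6.93-fold for PKDCC (211 to 1462). They spanned 1.66-fold for LGALS3BP (662 to 1098) and 1.83-fold for TEK (278 to 510). LGALS3BP and TEK thus varied least among these 8, and a small spread within groups was part of the F-test that chose them.

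NPTX1 lay on opposite sides of the control in shMAFK and shE2F6. It had 1318 and 2374 in shMAFK, both above the 1076 and 1048 of the control, and 198 and 438 in shE2F6, both below. In shKDM1A it had 692 and 1290, on either side of the control. From low to high the group means ran 22 in shSMARCA4, 318 in shE2F6, 991 in shKDM1A, 1062 in shLUC and 1846 in shMAFK. Of the neighbours in this order, shKDM1A and shLUC overlapped.

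The NPTX1 log2 change was -1.85 in shE2F6 (SE 0.44, unadjusted p 0.0023, limma adjusted p 0.63) and 0.74 in shMAFK (SE 0.44, limma adjusted p 0.734). Neither passed the threshold of 0.05 after adjustment over all rows. A comparison of shMAFK, shE2F6 and shKDM1A with each other needs no control mean. It gave NPTX1 an unadjusted F-test p of 0.000738 and a limma adjusted p of 0.083. Its spread came from all 10 libraries, as did that of the shSMARCA4 call by which NPTX1 was chosen. NPTX1 passed at 0.0297 with a separate weight for each group and at 0.0267 with the replicate number as a block. These settings also called more rows in all, 193 and 66, against 37 in the main fit. It did not pass with the other pseudocounts or filters, with centring, with genes only or without the variance trend. Nor did it pass in a fit of only the groups compared. Leaving out shKDM1A replicate 2 also changed the outcome, so it depended on that library.

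BTBD17 was the member with the largest difference outside shSMARCA4, in shMAFK. Its values were 77 and 26 in shMAFK against 312 and 233 in shLUC, or 18.9% of the control mean, and 108 and 118 in shE2F6, or 41.5%. In shKDM1A it had 268 and 140, and that pair overlapped the control. Group means ran from 10 in shSMARCA4 through 51.5 in shMAFK, 113 in shE2F6 and 204 in shKDM1A to 272.5 in shLUC, and libraries overlapped between shKDM1A and shLUC alone.

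In shMAFK the BTBD17 log2 change was -2.56 (SE 0.50, unadjusted p 0.000573, limma adjusted p 0.14). It did not pass the threshold over all rows. With group weights it passed at 0.0118, a setting that called 487 rows in shMAFK, against 2 in the main fit. Leaving out shMAFK replicate 2 gave -1.79, and leaving out replicate 1 of that group gave -3.33. In shE2F6 it was -1.25 (SE 0.50, limma adjusted p 0.949). Compared among the 3 knockdowns, BTBD17 had an unadjusted F-test p of 0.0069 and a limma adjusted p of 0.167. That outcome, too, changed without shKDM1A replicate 2.

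PKDCC varied most between replicates. The control libraries already held 543 and 978, and shMAFK held 581 and 1462, shE2F6 held 404 and 211, and shKDM1A held 658 and 334. Only the shE2F6 pair lay outside the control range, at 40.4% of its mean. The order of means was shSMARCA4 (32), shE2F6 (307.5), shKDM1A (496), shLUC (760.5) and shMAFK (1021.5), and each pair of neighbours above shSMARCA4 overlapped. The log2 change in shE2F6 was -1.32 (SE 0.55, limma adjusted p 0.962), and the F-test among the 3 knockdowns had a limma adjusted p of 0.295. In shMAFK the log2 change of 0.34 (SE 0.55, limma adjusted p 0.97) changed sign without shLUC replicate 1 (-0.09) or shMAFK replicate 2 (-0.33).

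LGALS3BP was below the control in all 6 libraries of the other knockdowns. The shMAFK libraries had 866 and 948, the shE2F6 libraries 726 and 662, and the shKDM1A libraries 729 and 873, against 1071 and 1098 in shLUC. These are 83.6%, 64% and 73.9% of the control mean. The log2 changes were -0.26, -0.64 and -0.44 (SE 0.24 each), with no test given. From shE2F6 (694) the means ran through shKDM1A (801) and shMAFK (907) to shLUC (1084.5), and shKDM1A and shMAFK overlapped.

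TEK was the 1 member above the control in shE2F6. It had 510 and 447 there, against 366 and 313 in shLUC. The shMAFK pair held 296 and 297, and the shKDM1A pair 278 and 288. The log2 change was 0.50 in shE2F6, -0.19 in shMAFK and -0.26 in shKDM1A (SE 0.16 each). The 5 group means, 57, 283, 296.5, 339.5 and 478.5 in the order shSMARCA4, shKDM1A, shMAFK, shLUC and shE2F6, belonged to pairs that did not overlap, although shKDM1A (at most 288) and shMAFK (at least 296) were close. No p-value is given for LGALS3BP or TEK, because a test over the same libraries chose them.

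**Figure D2:**
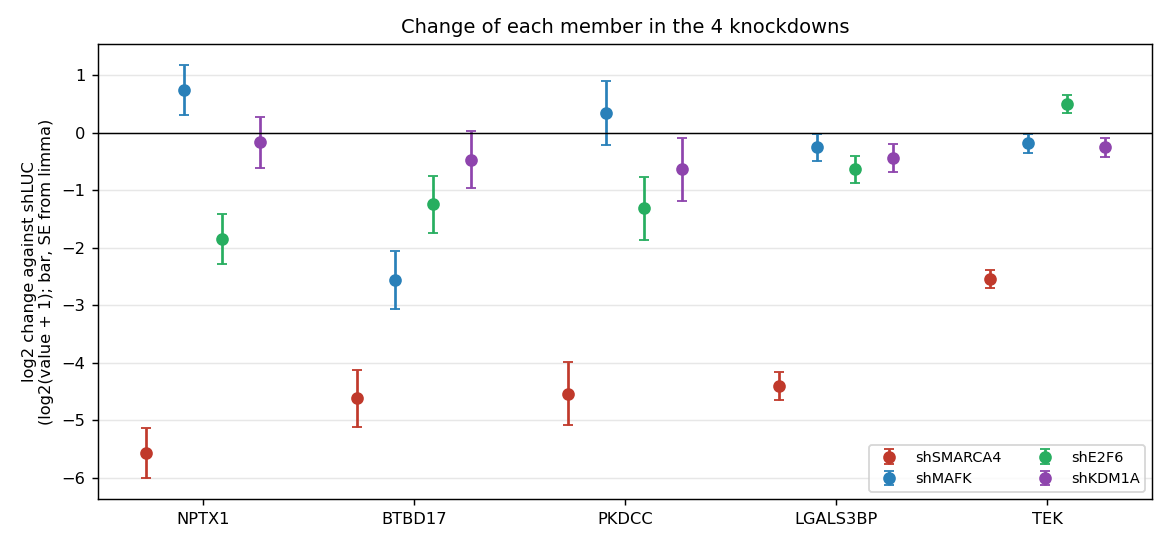
Log2 change of each member (x axis) against shLUC on the scale log2(value + 1), with the SE from limma as bars and 1 colour per knockdown. In shE2F6, NPTX1 (-1.85), BTBD17 (-1.25), PKDCC (-1.32) and LGALS3BP (-0.64) lie below 0 and TEK (0.50) above it, while in shMAFK BTBD17 (-2.56) stands apart from the other 4.

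Counted together, 0 of the 5 members passed the limma threshold over all rows in shMAFK (0.0135% of rows called), in shE2F6 (0%) or in shKDM1A (0.0271%). Of NPTX1, BTBD17 and PKDCC, 0 passed the F-test among these knockdowns (0.25% of rows called), and all 3 had an unadjusted p under 0.05 (16% of rows). Before adjustment, these 3 each had a p under 0.05 in shE2F6 (5.09% of rows), all lower. In shMAFK 1 did (8.77%), and in shKDM1A 0 did (11.5%). The shE2F6 count was 2 without shLUC replicate 1, 1 without shLUC replicate 2, 2 without shE2F6 replicate 1 and 1 without shE2F6 replicate 2. The shMAFK count was 2 with group weights, in a fit of only the groups compared and with the replicate block. LGALS3BP and TEK are part of the count of 0 of 5, which is no independent evidence for them, and are left out of the other counts.

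Of NPTX1, BTBD17 and PKDCC, both shE2F6 libraries lay below the control for 3 (20.4% of all rows) and above it for 0 (20.3%). In shMAFK this held for 1 below (25.3%) and 1 above (23.8%), and in shKDM1A for 0 below (20.9%) and 0 above (17.9%). The median log2 change of the 3 was -1.32 in shE2F6, 0.34 in shMAFK and -0.47 in shKDM1A, where the median over all rows was between -0.02 and 0. These comparisons share the 2 control libraries with each other and with the contrast that chose NPTX1, BTBD17 and PKDCC. The limma tests of these genes also share with that contrast a spread taken over all 10 libraries. Their p-values are therefore not independent of the choice. The replicate differences of shSMARCA4 and shE2F6 correlated at r = 0.337 across all rows, which are not independent, against -0.0503 to 0.106 for the other 9 pairs of groups. What part this had in the shE2F6 values was not tested.

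The closest patterns to each member were sought over all rows, by the mean absolute difference of log2 values relative to shLUC over the 8 knockdown libraries. Since 2 of these 8 are the shSMARCA4 pair that chose the members, a short distance between members, or to another row low in that pair, follows in large part from the choice. For NPTX1 they were PKDCC (0.85), LGALS3BP (0.92) and IRX2 (0.96), a homeobox transcription factor. IRX2 had 501 and 728 in shLUC, and like NPTX1 it was low in shE2F6 (151 and 182) and high in shMAFK (1166 and 1760). Its shSMARCA4 libraries held 46 and 62. PKDCC was most like NKAIN4 (0.62), IRX2 (0.68) and LGALS3BP (0.68). BTBD17 was most like LGALS3BP (0.97), CAVIN3 (0.98) and PPP1R1B (1.00), and even these lay about 1 log2 unit away per library. LGALS3BP was nearest to ARHGAP23 (0.46), the first drop beyond the members, and next to LINC02473 (0.50). In shE2F6, however, ARHGAP23 had 2017 and 1945, above its control, where LGALS3BP was below. TEK had the nearest matches, MLPH (0.25), LFNG (0.31) and ADAMTS4 (0.34). MLPH had 38 and 36 in shSMARCA4, 200 and 218 in shLUC and 257 and 275 in shE2F6. In shMAFK it had 256 and 266, above its control, where TEK was below.

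Relatives and partners of the members were read from 5 gene lists with 66 genes beside the members, of which 37 were in the table. In shSMARCA4, limma called 3 of the 37 (8.11%, against 4.18% of all rows), 2 lower (2.51% of rows) and 1 higher (1.67%), and 13 had an unadjusted p under 0.05 (35.1%, against 16.3% of all rows). In shMAFK, shE2F6 and shKDM1A it called 0. At an unadjusted p under 0.05 there were 3 in shMAFK (8.11%, against 8.77% of rows), 7 in shE2F6 (18.9%, against 5.09%) and 10 in shKDM1A (27%, against 11.5%).

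Among pentraxins and AMPA receptors (6 of 14 genes in the table), 1 gene fell in shSMARCA4. NPTX2, the second secreted neuronal pentraxin, had 213 and 121 there against 562 and 510 in shLUC, which is -1.73 on the log2 scale (SE 0.32, limma adjusted p 0.0202). The adjusted p was 0.143 without shLUC replicate 1, 0.129 without shLUC replicate 2 and 0.138 without shSMARCA4 replicate 2. In shE2F6, where NPTX1 was low, NPTX2 had 1060 and 661 (limma adjusted p 0.987). The shKDM1A libraries held 1704 and 1080 (limma adjusted p 0.245). NPTXR, the membrane-bound pentraxin receptor, had 84 and 96 in shSMARCA4 and 120 and 108 in shLUC (limma adjusted p 0.57). It had 236 and 366 in shMAFK (limma adjusted p 0.14). The median log2 change of the list was -0.35 in shSMARCA4, where that over all rows was 0.01.

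Among galectins and partners of LGALS3BP (7 of 15 in the table), limma called 0 in shSMARCA4, with 3 at an unadjusted p under 0.05 (16.3% of all rows) and a median log2 change of -0.24. LGALS3, the galectin after which LGALS3BP is named, had 70 and 44 in shSMARCA4, and the control had 91 and 87 (log2 change -0.67, SE 0.46, limma adjusted p 0.552). None of the 9 other BTBD genes in the table (of 12) was called in shSMARCA4, with 1 at an unadjusted p under 0.05 (16.3% of rows) and a median of -0.09.

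Secretory pathway kinases related to PKDCC (8 of 12 in the table) gave 0 calls in shSMARCA4, 3 at an unadjusted p under 0.05 (16.3% of rows) and a median of 0.03. FAM20C, the main kinase of secreted proteins, had 848 and 734 in shSMARCA4 against 953 and 866 (log2 change -0.20, limma adjusted p 0.82), and FAM20B, a kinase of proteoglycan sugars, 1656 and 1522 against 1482 and 1602. FAM20A, the partner of FAM20C, had 75 and 113 against 170 and 192 (limma adjusted p 0.211).

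In the list of TIE receptors and angiopoietins (7 of 13 in the table), 1 gene fell and 1 rose in shSMARCA4. SVEP1, an extracellular matrix protein known to bind TIE1, had 34 and 18 against 79 and 110 (log2 change -1.87, SE 0.39, limma adjusted p 0.0325). GRB14, an adaptor that binds receptor tyrosine kinases, had 350 and 394 against 200 and 201 (log2 change 0.89, SE 0.17, limma adjusted p 0.022). GRB14 did not pass without either shLUC library or either shSMARCA4 library (limma adjusted p 0.079 to 0.158). SVEP1 did not pass without either shLUC library, shSMARCA4 replicate 2 or either shMAFK library, or in a fit of only shSMARCA4 and shLUC (0.0558 to 0.259). TIE1, the second TIE receptor, had 28 and 30 against 44 and 47 (limma adjusted p 0.558). ANGPT1, an agonist of TEK, had 338 and 322 against 160 and 166 (log2 change 1.01, SE 0.46, limma adjusted p 0.324), so ligand and receptor lay on opposite sides of the control without a call for the ligand. ANGPT2 was not analysed here.

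**Figure D3:**
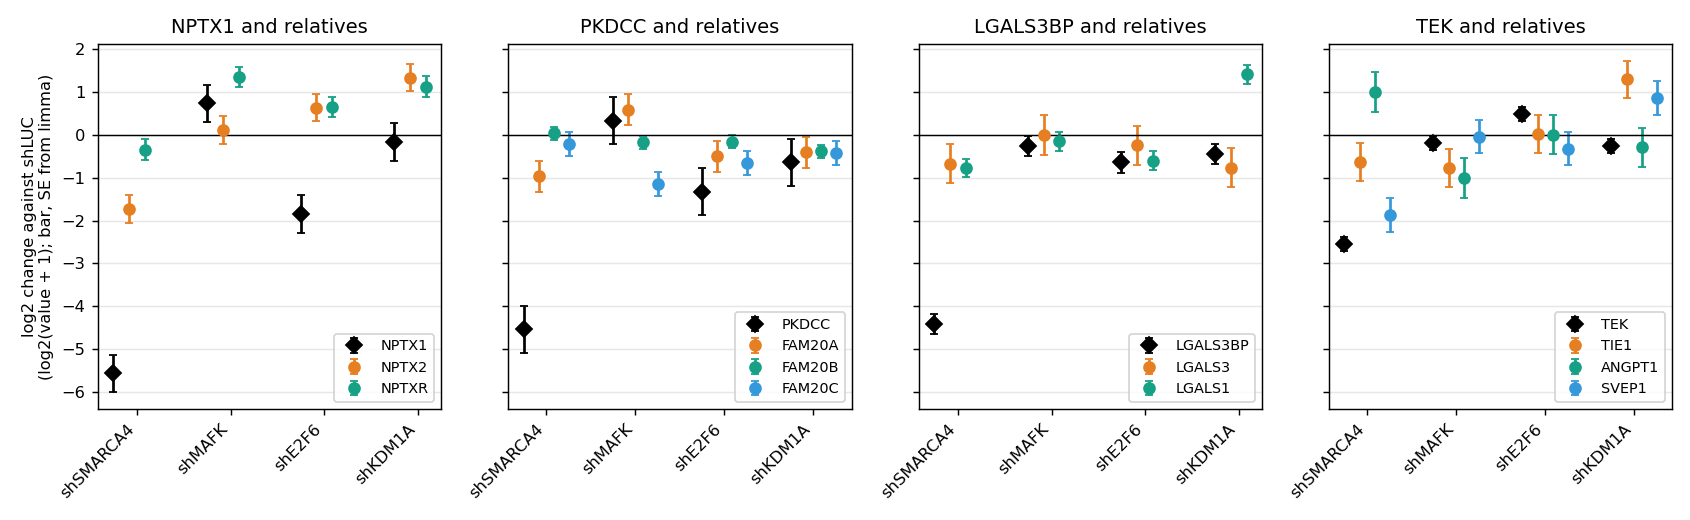
Log2 change against shLUC on the scale log2(value + 1) in the 4 knockdowns (x axis), with the SE from limma as bars, for 4 members (diamonds) and named relatives (circles). The members were chosen with the shSMARCA4 libraries, so their place below the relatives there follows in large part from the choice. NPTX2 (-1.73) and SVEP1 (-1.87) are the lowest relatives shown in shSMARCA4. BTBD17 is not shown.

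Markers of cell types that use these genes were also read. Endothelial markers (5 of 11 in the table) summed to 7534 to 7876 in shLUC and 9751 to 10030 in shSMARCA4, and limma called 0 of the 5 in any knockdown. VWF, the von Willebrand factor of endothelial cells, had a mean of 114 ± 22.6 (SD, n = 2) in shLUC and 160 ± 11.3 in shSMARCA4. Its limma adjusted p was 0.462. KDR and FLT1 made up most of the endothelial sum. In shSMARCA4 both were above the control (KDR 6746 and 6647 against 5420 and 4612, FLT1 2690 and 2968 against 2098 and 2567). TIE1 was below it (28 and 30 against 44 and 47), and ERG overlapped it (135 and 217 against 216 and 178). PECAM1 and CDH5 were not analysed here. Neural markers (5 of 11) summed to 10227 to 11591 in shLUC, 6274 to 9110 in shSMARCA4, 6895 to 9261 in shMAFK, 11271 to 13744 in shE2F6 and 8022 to 12513 in shKDM1A. STMN2, a neuronal tubulin regulator, was the 1 of these called, with 45 in both shSMARCA4 libraries against 198 and 249 (log2 change -2.28, SE 0.22, limma adjusted p 0.00127). TUBB3 was also below the control in shSMARCA4 (2200 and 2072 against 5536 and 3264), and NES overlapped it (6143 and 3168 against 5300 and 6143). MAP2 (466 and 741 against 311 and 369) and DCX (256 and 248 against 246 and 202) were above it. The neural sum was set mainly by NES and TUBB3. Mesendoderm markers (4 of 9) summed to 71 to 82 in shLUC and 1198 to 7385 in shSMARCA4. MIXL1 was called higher there, with 1809 and 132 against 20 and 14 (limma adjusted p 0.0365). CER1 (2354 and 172), EOMES (2430 and 724) and FOXA2 (792 and 170) were not called in shSMARCA4. All 4 were higher in shSMARCA4 replicate 1 than in replicate 2. The part of a shift in cell state in the member values was not tested.

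Genes next to the members on the chromosome were compared in the same way. Of the 10 nearest genes in the table, 1 on each side of each member, limma called 1 lower in shSMARCA4 (2.51% of all rows were) and 0 in the other knockdowns. It was GPRC5C, an orphan G protein-coupled receptor 62.9 kb from BTBD17, which held 47 and 46 after SMARCA4 knockdown and 202 in both control libraries (log2 change -2.10, SE 0.25, limma adjusted p 0.0032). GPRC5C had 240 and 189 in shMAFK, where BTBD17 was low. LGALS3BP has CANT1 at 11.6 kb (808 ± 170 in shSMARCA4, 696.5 ± 95.5 in shLUC; SD, n = 2) and NPTX1 has ENDOV at 29.1 kb (132.5 ± 27.6 and 87 ± 15.6). Neither was called in shSMARCA4 (limma adjusted p 0.76 and 0.686). In the 6.12 Mb of chromosome 17 from BTBD17 to NPTX1, limma called 4 of the 83 other genes lower (4.82%, against 2.51% of all rows) and 3 higher (3.61%, against 1.67%) in shSMARCA4. The median log2 change of the 83 was -0.02 there, against 0 over all genes.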

How the data were processed

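RNA-seq values of 10 libraries (5 groups of 2) were read from the table that the authors deposited per library. Its values are scores: whole numbers that the authors had normalized, per the values themselves, since 80.3% of ranks hold the same value in every library and the totals lie between 22836548 and 22855295. Read depth is therefore unknown, and no counting interval is given. The submitters' processing notes name hg38, STAR and STARsolo; the counter, the annotation and the normalization are not given in the sources used here. The deposited table of group means was not used, and 0 columns of values were left unmapped.

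Values were analysed as log2(value + 1), which understates changes of low rows. A minimum mean of 10 left all 14785 rows in the test. Each knockdown was compared with shLUC in 1 limma 3.58.1 fit of all 10 libraries (R 4.3.3, mean-variance trend, two-sided, 5 residual degrees of freedom, Benjamini-Hochberg adjustment over all rows). The 3 knockdowns other than shSMARCA4 were compared with a moderated F-test. The fit was tested on simulated data. The shKDM1A pair differs most between replicates, so the shared spread understates its errors and overstates those of the others. Tables used Python 3.11.15 and pandas 2.3.3, plots matplotlib 3.10.9.

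The members and lists were chosen with earlier results of these data known. Named genes are the members, the targets, list genes past the threshold with close relatives, the 3 most alike rows per member, the nearest genes and the rows just beyond the choice; 1 row under this rule is not reported here. SOX2, LIN28A, NANOG, POU5F1, PODXL, PRDM14, SALL4, TDGF1, USP44, LGALS1 and BTBD6 are named outside that rule, after their values were seen. So are KDR, FLT1, VWF, ERG, NES, MAP2, TUBB3, DCX, STMN2, MIXL1, EOMES, FOXA2 and CER1. All 13808 gene identifiers were found in GENCODE release 29. Alternatives covered the pseudocount, the filter, centring, rows, variance model, group weights, libraries in the fit, a replicate block and leaving out each library. Same-numbered libraries were not taken as pairs.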

Additional observations from a re-analysis of the deposited data

How the results depend on the processing

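No member was called against shLUC in shE2F6 or shKDM1A under any alternative run, and in shMAFK 1 was with group weights (BTBD17). The F-test among the 3 knockdowns called 1 with group weights, 1 with the replicate block (NPTX1 both times) and 0 to 2 when 1 library was left out. Pathway list genes called in shSMARCA4 were 8 with group weights, 5 in a fit of only the groups compared, 6 without both shKDM1A libraries and 0 to 6 with 1 library left out. In shMAFK they were 3 with group weights and 0 to 1 with 1 library left out, and in shKDM1A 1 without the variance trend and 0 to 11 with 1 library left out. Of the changes that were not called, 3 values took the other sign: NPTX1 in shKDM1A, to 0.28 without shKDM1A replicate 1 (lowest -0.62, without replicate 2), and PKDCC in shMAFK, to -0.09 without shLUC replicate 1 and -0.33 without shMAFK replicate 2. The cause was not tested. A group left with 1 library is assumed to vary like the others. For LGALS3BP and TEK, the counts of members called are a description only.

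Rows called, 618 in shSMARCA4, were 1306 with group weights, 1162 without both shKDM1A libraries and 89 to 1159 with 1 library left out. In shMAFK (2) they were 487, 34 and 0 to 37, with 20 in a fit of the groups compared, 5 without the trend and 1 with the block. In shE2F6 (0) they were 21, 5 and 0 to 5, with 1 in a fit of the groups compared. In shKDM1A (4) they were 2 with group weights, 9 without the trend, 0 in a fit of the groups compared and 1 to 3235 with 1 library left out, the last without shKDM1A replicate 2. The F-test (37) gave 193 with group weights, 4 in a fit of the groups compared, 66 with the block and 0 to 3980 with 1 library left out.

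The replicate numbers were not taken to pair the libraries: of the 10 correlations of replicate differences 2 were over 0.1 (-0.0503 to 0.337). The highest was between shSMARCA4 and shE2F6, and whether their same-numbered libraries share a source was not tested. The block changed no other call of a member. SVEP1 has no value with a minimum mean of 100, and shKDM1A and the F-test none without both shKDM1A libraries.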

Other observations

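Among the 37 list genes in the table, 10 had an unadjusted p under 0.05 in shKDM1A (27%, against 11.5% of all rows), 8 higher and 2 lower, and limma called 0 after adjustment. LGALS1, a galectin, had a mean of 298 ± 11.3 normalized tag counts (SD, n = 2) in shKDM1A and 111 ± 7.07 in shLUC, a log2 change of 1.42 (SE 0.22, unadjusted p 0.000124, limma adjusted p 0.122). NPTXR had 226 and 278 in shKDM1A, and its control libraries 120 and 108 (log2 change 1.13, SE 0.24, limma adjusted p 0.184), and TIE1 had 136 and 94 against 44 and 47 (log2 change 1.30, SE 0.44, limma adjusted p 0.372). The 2 lower genes were BTBD6, with 87 and 64 against 134 and 106 (log2 change -0.67, limma adjusted p 0.416), and FAM20B, with 1087 and 1288 against 1482 and 1602 (log2 change -0.38, limma adjusted p 0.407). LGALS3 had 34 and 80 against 91 and 87 (limma adjusted p 0.512). The shKDM1A pair is the group whose replicates differ most.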
